A study of Homo sapiens with 16 samples.

Results

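The FGF receptors, ligands and feedback inhibitors are 10 genes picked by their symbols: the receptors FGFR1, FGFR2, FGFR3 and FGFR4, the ligands FGF2 and FGF5, and the feedback inhibitors DUSP6, SPRY2, SPRY4 and SPRED2, out of 57820 genes in the files. RNA was sequenced from G401, a line grown from a rhabdoid tumor of the kidney that carries mutant SMARCB1, after CRISPR-Cas9 targeting of BRD9, a bromodomain subunit of the SWI/SNF chromatin remodeler (BRD9 KO), or of LacZ, a bacterial gene absent from the human genome (LacZ). The groups were BRD9 KO and LacZ on days 1, 2, 3 and 5, with 2 libraries per group and 16 libraries in all. The study's methods describe, for its lines in general, stable Cas9 expression followed by a guide vector and drug selection, and do not say whether the cells sequenced here were a pool or a clone.

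In FGF signalling a secreted ligand binds a receptor tyrosine kinase together with heparan sulfate on the cell surface. The paired receptors pass the signal through the adaptor FRS2 to RAS and on to the kinase ERK, and ERK switches on genes whose products damp the same pathway. DUSP6 removes phosphate from ERK, the Sprouty proteins SPRY2 and SPRY4 act between receptor and RAF, and SPRED2 holds back RAS together with neurofibromin, so their transcripts are widely read as a record of ERK output. Rhabdoid tumor lines are known to express FGF receptors and to respond to FGF receptor inhibitors in culture.

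The total per library was 9185866 to 16560749 expected counts in the BRD9 KO libraries, against 11252871 to 15430142 in LacZ. BRD9 RNA stood at 16.6 to 25.9 CPM in the BRD9 KO libraries, against 45.8 to 64.5 CPM in LacZ, so that 35.0% of the control level was left on day 1, 39.1% on day 2, 40.4% on day 3 and 39.3% on day 5. CPM is a gene's share of the library's counts scaled to a fixed total, with library totals adjusted by the TMM method. SMARCB1, lost in rhabdoid tumors, had 0 counts in the 8 BRD9 KO libraries and at most 2 counts in a LacZ library. Of 6 markers of epithelial, blood, endothelial and liver cells in the files, none passed the filter on low counts and none was above 0.91 TPM. Mitochondrial transcripts took 5.66% to 6.69% of counts in the BRD9 KO libraries, against 5.26% to 6.37% in LacZ, and were higher in both BRD9 KO libraries on days 1 and 2; their part in the results was not tested. Changes in RNA per cell and in the make-up of the cells cannot be told apart in these bulk samples. The study's methods call the 2 libraries of a group biological replicates without saying whether they came from separate cultures. The p-values measure only the spread between libraries within groups, pooled over all 8 groups. The typical difference between the 2 libraries of a group was near counting noise, from 1.06 times (LacZ day 5) to 1.15 times (BRD9 KO day 2). Small p-values therefore rest on this narrow spread, and whether separate cultures would differ more was not tested.

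The 250 bases before the annotated start of DUSP6, SPRY4 and FGFR3 are printed because these 3 members had the highest log2 fold changes in the late time points described further on. The sequences are RefSeq's on GRCh38.p14, 5′ to 3′ on the strand of the gene, and capitals mark GGAA or its reverse complement TTCC, the core of the sites of ETS factors, some of which ERK activates.
DUSP6, chr12:89352502-89352751, minus strand: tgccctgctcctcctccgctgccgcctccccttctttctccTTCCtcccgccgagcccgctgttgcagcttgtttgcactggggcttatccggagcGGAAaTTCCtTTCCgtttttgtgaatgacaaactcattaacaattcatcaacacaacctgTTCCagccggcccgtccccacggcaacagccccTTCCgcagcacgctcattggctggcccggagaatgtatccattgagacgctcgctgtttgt
SPRY4, chr5:142324248-142324497, minus strand: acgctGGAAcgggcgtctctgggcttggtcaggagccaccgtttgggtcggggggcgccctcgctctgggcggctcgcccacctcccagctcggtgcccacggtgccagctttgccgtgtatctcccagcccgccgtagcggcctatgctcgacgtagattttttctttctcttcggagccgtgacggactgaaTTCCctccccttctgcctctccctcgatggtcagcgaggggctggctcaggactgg
FGFR3, chr4:1793043-1793292, plus strand: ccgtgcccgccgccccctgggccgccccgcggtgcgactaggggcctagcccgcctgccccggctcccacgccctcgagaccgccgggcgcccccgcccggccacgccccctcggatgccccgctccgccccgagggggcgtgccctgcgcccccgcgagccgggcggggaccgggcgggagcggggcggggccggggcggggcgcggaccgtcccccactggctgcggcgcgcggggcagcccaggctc
The core occurred 6 times upstream of DUSP6, 2 times upstream of SPRY4 and 0 times upstream of FGFR3. These letters are common: 92.7% of 35116 annotated promoters of the same length held the core on either strand. The longer ETS form CCGGAA, found in 14.5% of promoters, the AP-1 site TGANTCA, in 6.57%, and the cAMP response element TGACGTCA, in 1.65%, were searched on both strands and occurred in none of these 3 windows. Of the 10 members, 9 had a promoter entry, and CCGGAA, which contains GGAA, stood upstream of SPRY2 alone.

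All 10 genes were expressed in every library and all 10 passed the filter on low counts. TPM, which corrects RSEM's estimate for the length of the transcripts, allows levels of different genes to be set side by side. FGFR1 (chromosome 8, 38257733 to 38326352 on GRCh37, minus strand) was the most abundant receptor at 267 to 346 TPM (median 312) in BRD9 KO and 272 to 324 TPM (median 306) in LacZ libraries. FGFR2 (chromosome 10, 123237846 to 123357972, minus strand) followed at 126 to 152 TPM (median 141) in BRD9 KO and 134 to 169 TPM (median 159) in LacZ libraries. The low receptors were FGFR3 (chromosome 4, 1795020 to 1810599, plus strand) at 7.40 to 20.1 TPM in BRD9 KO and 5.41 to 13.9 TPM in LacZ libraries, and FGFR4 (chromosome 5, 176513906 to 176525145, plus strand) at 8.62 to 14.3 TPM in BRD9 KO and 9.60 to 13.4 TPM in LacZ libraries. FGFR1 therefore made up 60.3% to 67.2% of the summed receptor TPM in BRD9 KO libraries, against 60.4% to 67.8% in LacZ. The ranges of FGFR3 and FGFR4 overlapped in both groups, so these 2 could not be ranked over the time course.

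Among the ligands FGF5 (chromosome 4, 81187793 to 81257834, plus strand) was above FGF2 (chromosome 4, 123747837 to 123819391, plus strand) in every library. FGF5 lay at 143 to 158 TPM in BRD9 KO and 125 to 166 TPM in LacZ libraries, and FGF2 at 55.7 to 73.2 TPM in BRD9 KO and 53.0 to 71.2 TPM in LacZ libraries. Among the feedback inhibitors DUSP6 (chromosome 12, 89741012 to 89746278, minus strand) led with 122 to 204 TPM in BRD9 KO and 121 to 149 TPM in LacZ libraries. SPRY2 (chromosome 13, 80910111 to 80915261, minus strand), SPRED2 (chromosome 2, 65537985 to 65659771, minus strand) and SPRY4 (chromosome 5, 141689992 to 141706020, minus strand) were lower. SPRY2 had 30.9 to 48.8 TPM in BRD9 KO and 32.0 to 41.7 TPM in LacZ libraries. SPRED2 had 28.0 to 39.4 TPM in BRD9 KO and 26.9 to 32.0 TPM in LacZ libraries. Among the inhibitors SPRY4 had the widest range for its level, with 13.3 to 37.8 TPM in BRD9 KO and 13.5 to 24.9 TPM in LacZ libraries.

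The number of members that differed grew over the days. A gene is called here when the adjusted p of edgeR's quasi-likelihood test (Benjamini-Hochberg over the 15027 genes tested) is under 0.05. On day 1, 0 of 10 members were called by edgeR, against 0.539% of all genes tested; 2, FGF2 and FGF5, had an unadjusted p under 0.05, and DESeq2 and limma also called 0. On day 2, 2 of 10, FGFR3 and FGF5, were called, both higher, against a background of 2.70%, and without any one of the 4 libraries of that day the count was 0 or 1. On day 3, 5 of 10 were called, with DUSP6, SPRY4, FGFR1 and FGFR3 higher and FGFR2 lower, against 10.4%. On day 5, 8 of 10 were called, with FGF2 and SPRED2 now also among the 6 higher and FGF5 among the 2 lower, against 15% of all genes. Averaged over days 1 and 2 (early), 3 members were called, 2 higher and 1 lower, against 3.31% of genes; without replicate 1 of BRD9 KO day 2 or replicate 1 of LacZ day 2 the count was 1. Averaged over days 3 and 5 (late), 8 were called, 6 higher and 2 lower, against 21.5%. The members are abundant genes in which small differences pass more easily: among the 8386 tested genes within the members' range of mean log2 CPM, 4.03 to 9.30, the share called was 21.1% on day 5 and 30.1% late. The median log2 fold change of the 10 members was 0.12 late, beside -0.0003 for all genes, and the median size was 0.16 beside 0.10. The comparison late minus early, a direct test of whether the BRD9 KO effect changed, called 6 members, against 7.43% of genes. Within the members' range of abundance it called 10.8% of genes. The members were chosen with earlier results of these data known. The shares and medians set beside all genes therefore describe these 10 genes only. Where the text says that the libraries of the 2 groups did not overlap, this is a description only. With 2 libraries per group they can lie apart without a call, as for SPRY2 and FGFR4 on day 5. The share of all genes so separated was not computed.

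**Figure D1:**
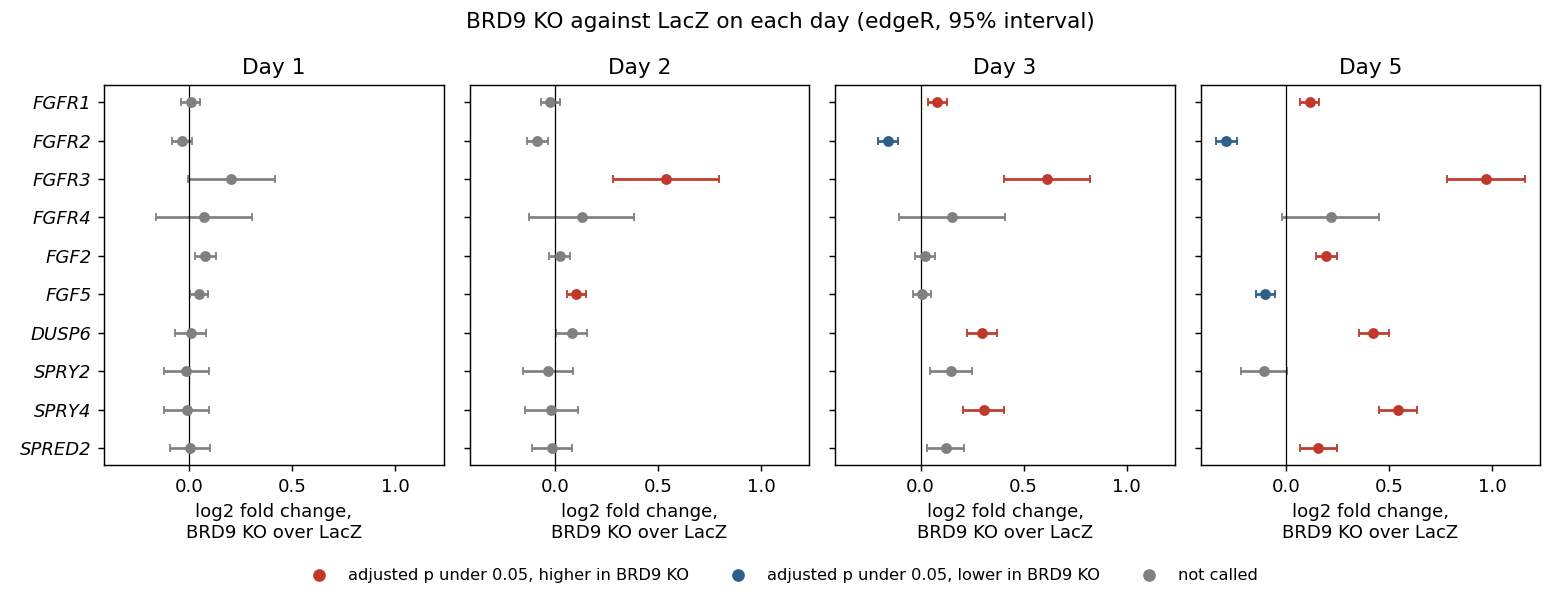
Log2 fold change of BRD9 KO over LacZ (x axis) for each of the 10 genes (rows) on days 1, 2, 3 and 5 (panels), with 95% intervals from edgeR; red and blue mark genes called higher and lower, grey those not called. No gene is coloured on day 1 and 8 are on day 5, where FGFR3 stands farthest right at 0.97.

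The feedback inhibitors DUSP6 and SPRY4 rose late. DUSP6 had 219.9 and 212 CPM in the BRD9 KO libraries on day 5, against 162 and 159 CPM in LacZ. On day 3 it had 191 and 192 CPM in BRD9 KO, against 155 and 157 CPM in LacZ. Both BRD9 KO libraries lay above both LacZ libraries on each of these days, and LacZ cells of day 5 differed from those of day 1 by -0.02 on the log2 scale (standard error 0.04). The annotation places an unnamed gene across 1105 exon bases of DUSP6 on the opposite strand. That gene is not among the genes quantified, so its level is unknown, and the library kit does not keep the strand. Its part in the DUSP6 counts was not tested. The day 5 means were 216 ± 5.54 CPM in BRD9 KO and 161 ± 2.21 CPM in LacZ cells (SD, n = 2 each), a 1.34-fold difference (log2 fold change 0.42, standard error 0.03, adjusted p = 4.96e-08, edgeR). On day 3 the difference was 1.23-fold (log2 0.30, adjusted p = 1.14e-05, edgeR). Early in the time course DUSP6 was not called: it had 169.5 and 159 CPM in BRD9 KO against 167 and 159.8 CPM in LacZ on day 1, and 150.2 and 149 CPM in BRD9 KO against 143 and 139.9 CPM in LacZ on day 2. The late effect exceeded the early one by 0.32 on the log2 scale (standard error 0.04, adjusted p = 7.78e-06, edgeR). DUSP6 had the smallest late p of the members, 1.28-fold higher (adjusted p = 2.69e-09, edgeR), and none of these calls was lost when any library was left out.

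SPRY4 rose late on a baseline that itself moved. It had 89.1 and 86.7 CPM in BRD9 KO on day 5, against 59.4 and 61.2 CPM in LacZ, and 59.4 and 61.2 CPM in BRD9 KO on day 3, against 48.3 and 48.9 CPM in LacZ. The 2 groups did not overlap on either day. They did overlap early, with 42.4 and 46.3 CPM in BRD9 KO against 44.8 and 45.5 CPM in LacZ on day 1, and 31.4 and 33.3 CPM in BRD9 KO against 31.7 and 33.7 CPM in LacZ on day 2. SPRY4 was 1.46-fold higher in BRD9 KO on day 5 (log2 0.54, standard error 0.04, adjusted p = 3.58e-08, edgeR) and 1.24-fold higher on day 3 (log2 0.31, standard error 0.05, adjusted p = 0.00028, edgeR). With limma on TPM the day 3 call was lost (log2 0.28, adjusted p = 0.0768, limma) and that of day 5 was kept. LacZ cells themselves had 1.33-fold more SPRY4 on day 5 than on day 1 (log2 0.42, adjusted p = 4.63e-06, edgeR), a comparison that shares its LacZ libraries with those of BRD9 KO against LacZ on days 1 and 5. In that LacZ comparison 5 members were called, against 25.6% of all genes. Without replicate 2 of LacZ day 5 it was 3. SPRED2 was the other inhibitor called there, higher on day 5 by 0.20 on the log2 scale (adjusted p = 0.00261, edgeR), a call lost with limma on TPM (adjusted p = 0.143).

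SPRED2 rose slightly and SPRY2 was not called. SPRED2 had 83.8 and 81.4 CPM in BRD9 KO on day 5, against 72.3 and 75.9 CPM in LacZ, with no overlap, and was 1.11-fold higher (log2 0.16, standard error 0.04, adjusted p = 0.017, edgeR). That call was lost without replicate 1 of BRD9 KO day 5 (adjusted p = 0.0955) and without replicate 1 of LacZ day 5 (adjusted p = 0.207, edgeR), and with DESeq2 (adjusted p = 0.153). Averaged over days 3 and 5 SPRED2 was 1.10-fold higher (log2 0.14, adjusted p = 0.00252, edgeR). Without either replicate 2 of BRD9 KO day 1 (adjusted p = 0.0425) or replicate 2 of BRD9 KO day 3 (adjusted p = 0.0298) its late effect also differed from the early one, which it did not with all libraries (adjusted p = 0.0579, edgeR). SPRY2, the other Sprouty gene, did not pass the test in any comparison and took opposite sides on the 2 late days. On day 3 it had 58.3 and 54.8 CPM in BRD9 KO against 50.5 and 52.1 CPM in LacZ (log2 fold change 0.15, 95% interval 0.04 to 0.25, adjusted p = 0.0664, edgeR). On day 5 it had 41.7 and 44.7 CPM in BRD9 KO against 46.8 and 46.9 CPM in LacZ (log2 fold change -0.11, 95% interval -0.22 to 0.003, adjusted p = 0.238, edgeR).

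**Figure D2:**
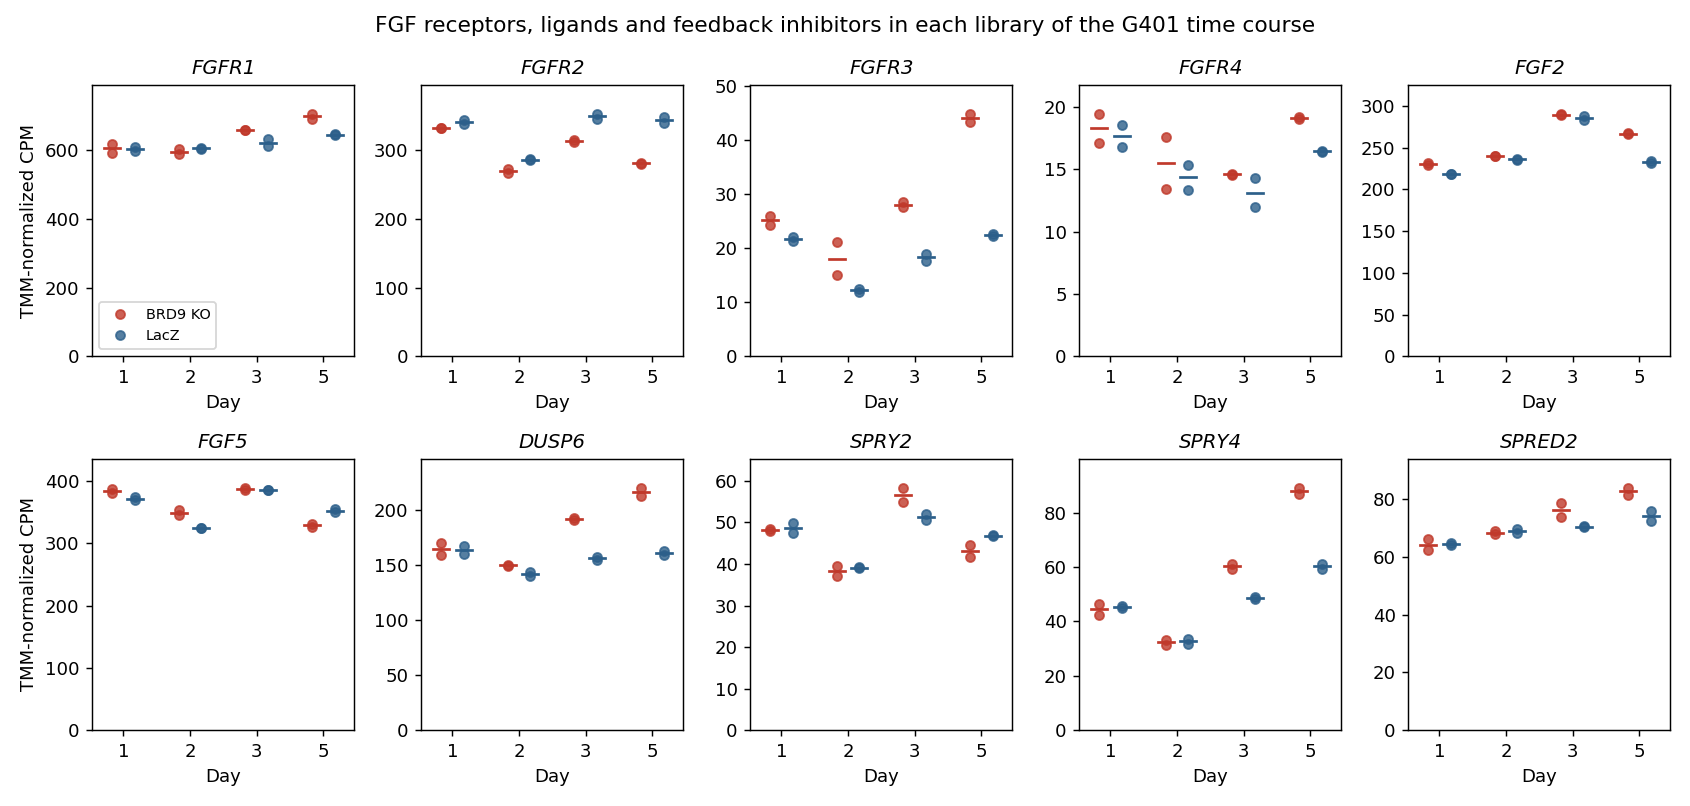
TMM-normalized CPM (y axis, from 0) of the 10 genes in each library on days 1, 2, 3 and 5 (x axis); points are libraries, bars the mean of 2, BRD9 KO in red and LacZ in blue. DUSP6 and SPRY4 separate on days 3 and 5, FGFR3 shows its widest gap on day 5 at 44.8 and 43.4 CPM in BRD9 KO against 22.7 and 22.2 CPM in LacZ, and FGFR2 lies lower in BRD9 KO.

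Among the receptors FGFR3 rose by the most. FGFR3, a kinase best known for restraining growth of the long bones, had 44.8 and 43.4 CPM in BRD9 KO on day 5, against 22.7 and 22.2 CPM in LacZ. On day 3 it had 28.5 and 27.5 CPM in BRD9 KO, against 17.7 and 19.0 CPM in LacZ. The groups did not overlap on any of the 4 days, but on day 2 the BRD9 KO libraries themselves were far apart, with 15 and 21.1 CPM, against 11.9 and 12.5 CPM in LacZ. On day 5 FGFR3 was 1.96-fold higher in BRD9 KO (log2 0.97, standard error 0.09, adjusted p = 2.89e-07, edgeR), on day 3 1.53-fold (log2 0.61, adjusted p = 0.000467, edgeR) and on day 2 1.45-fold (log2 0.54, standard error 0.12, adjusted p = 0.0205, edgeR). On day 1 it had 26.0 and 24.3 CPM in BRD9 KO against 21.2 and 22.0 CPM in LacZ and was not called (log2 0.20, adjusted p = 0.508, edgeR). The day 2 call was lost without replicate 2 of BRD9 KO (log2 0.30, adjusted p = 0.29), replicate 1 of LacZ (adjusted p = 0.182) or replicate 2 of LacZ (adjusted p = 0.0944, edgeR). The early call (log2 0.37, adjusted p = 0.0114, edgeR) was lost without replicate 1 of LacZ day 2 (adjusted p = 0.0655). The late effect exceeded the early one by 0.42 on the log2 scale (adjusted p = 0.0189, edgeR), and this call was lost without replicate 2 of BRD9 KO day 1 (adjusted p = 0.0606), replicate 2 of LacZ day 2 (adjusted p = 0.0611) or replicate 1 of LacZ day 3 (adjusted p = 0.0544).

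FGFR3 is a low gene, with 147 to 713 counts per library. RSEM's effective length for FGFR3, the transcript length it assigns to the reads of a library, was 2254.8 bases in replicate 2 of LacZ day 3 and 3990.2 in replicate 1, and between 3078.43 and 4015.79 in the other 14. On day 3 FGFR3 had 13.6 and 14.4 TPM in BRD9 KO, against 7.33 TPM (219 counts) and 13.9 TPM (240 counts) in LacZ. With limma on TPM in place of edgeR on counts, the FGFR3 calls of days 2, 3 and 5 were lost (adjusted p = 0.469, 0.386 and 0.0676), as were the early call (adjusted p = 0.447) and that of late minus early (log2 0.25, adjusted p = 0.691), and the late call was kept (adjusted p = 0.032, limma). The part of the length estimate in that loss was not tested.

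FGFR1 and FGFR2, the main receptors, moved in opposite directions. FGFR2 had 281 and 280.5 CPM in BRD9 KO on day 5, against 339 and 348 CPM in LacZ, and 311 and 315 CPM in BRD9 KO on day 3, against 352 and 345 CPM in LacZ. On day 2 it had 267 and 272 CPM in BRD9 KO against 287 and 285 CPM in LacZ, and on day 1 332 CPM in both BRD9 KO libraries against 343 and 338 CPM in LacZ. BRD9 KO libraries were the lower ones on all 4 days. FGFR2 fell to 0.818 of the LacZ level on day 5 (log2 fold change -0.29, standard error 0.02, adjusted p = 4.58e-08, edgeR) and to 0.897 on day 3 (log2 -0.16, adjusted p = 0.000163, edgeR). The early difference was smaller (log2 -0.06, adjusted p = 0.048, edgeR), and of the 8 libraries of days 1 and 2 only replicate 2 of BRD9 KO day 2 could be left out without losing the call. Without any one of the others the adjusted p was 0.0875 to 0.171, and with limma on TPM it was 0.548.

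FGFR1 had 706 and 692 CPM in BRD9 KO on day 5, against 647 and 643 CPM in LacZ, and 659 and 658 CPM in BRD9 KO on day 3, against 632 and 613 CPM in LacZ. Both BRD9 KO libraries were higher on both days. On day 2 it had 603 and 588 CPM in BRD9 KO against 605 and 606 CPM in LacZ, and on day 1 593 and 618 CPM in BRD9 KO against 609 and 599 CPM in LacZ, and it was not called on either day (adjusted p = 0.711 and 0.976, edgeR). The difference was 1.08-fold on day 5 (log2 0.11, standard error 0.02, adjusted p = 0.00093, edgeR) and 1.06-fold on day 3 (log2 0.08, adjusted p = 0.018, edgeR). The day 3 call was lost without replicate 1 (adjusted p = 0.106) or replicate 2 of BRD9 KO (adjusted p = 0.0798) and without replicate 2 of LacZ (adjusted p = 0.22, edgeR). With limma on TPM the calls of days 3 and 5 were both lost (log2 0.17 on each day, adjusted p = 0.244 and 0.168), as was that of late minus early (adjusted p = 0.0851), and the late call was kept (adjusted p = 0.039, limma). Averaged over days 3 and 5 the log2 fold change was 0.10 (adjusted p = 9.22e-05, edgeR). LacZ cells also had more FGFR1 on day 5 than on day 1, by 0.09 on the log2 scale (adjusted p = 0.00291, edgeR; 0.746 with limma on TPM), a comparison that shares the LacZ libraries of day 5. LETM2 shares 138 exon bases with FGFR1 on the opposite strand and had 12.9 to 17.2 CPM, against at least 588 CPM of FGFR1.

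The ratio of FGFR1 to FGFR2 TPM in a library was 2.54 and 2.46 in BRD9 KO on day 5, against 1.74 and 1.82 in LacZ, and 2.28 and 2.28 in BRD9 KO on day 3, against 1.85 and 1.77 in LacZ. On day 2 it was 2.35 and 2.12 in BRD9 KO against 2.35 and 2.32 in LacZ, and on day 1 1.76 and 1.97 in BRD9 KO against 1.95 and 1.77 in LacZ. The TPM ratio thus separated the groups on days 3 and 5 and not on days 1 and 2. The same ratio on CPM, which is not corrected for length, was 2.51 and 2.47 in BRD9 KO on day 5 against 1.91 and 1.85 in LacZ, and 2.12 and 2.09 in BRD9 KO on day 3 against 1.79 and 1.77 in LacZ. On CPM the BRD9 KO libraries were also the higher ones early, by less, at 2.26 and 2.16 in BRD9 KO against 2.11 and 2.12 in LacZ on day 2 and 1.79 and 1.86 in BRD9 KO against 1.77 in both LacZ libraries on day 1. Whether the early ratios separate therefore depends on the unit, and no test was run on either ratio. FGFR4, known for its part in bile acid control in the liver, had 19.0 and 19.2 CPM in BRD9 KO on day 5 against 16.4 and 16.5 CPM in LacZ, and was not called on that day (log2 0.22, 95% interval -0.02 to 0.45, adjusted p = 0.232, edgeR) or in any other comparison.

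**Figure D3:**
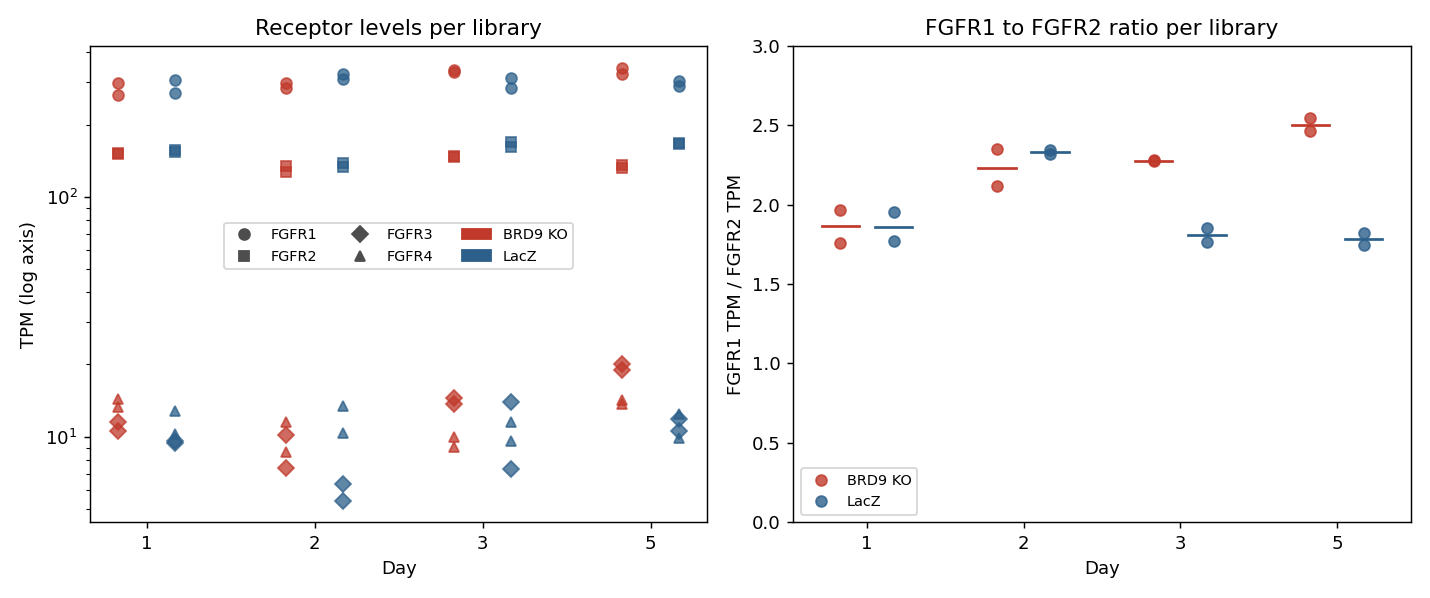
Left, TPM of the 4 receptors in each library by day on a log axis; right, the ratio of FGFR1 to FGFR2 TPM in each library by day, with bars at the mean of 2. BRD9 KO is red and LacZ blue. FGFR1 lies highest at 267 to 346 TPM, and the ratio reaches 2.54 and 2.46 in BRD9 KO on day 5 against 1.74 and 1.82 in LacZ.

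The ligands changed by smaller amounts. FGF2, which leaves the cell without a classical signal peptide, had 267 and 266 CPM in BRD9 KO on day 5, against 232 and 235 CPM in LacZ. Both BRD9 KO libraries were above both LacZ libraries on all 4 days, with 239.9 and 239.5 CPM in BRD9 KO against 236 CPM in both LacZ libraries on day 2 and 231 and 229 CPM in BRD9 KO against 218 CPM in both LacZ libraries on day 1. The gap was least on day 3, with 290.3 and 288.5 CPM in BRD9 KO against 288.48 and 283 CPM in LacZ. FGF2 was called on day 5, 1.14-fold higher (log2 0.20, standard error 0.02, adjusted p = 1.01e-05, edgeR), and not on days 1, 2 and 3 (log2 0.08, 0.02 and 0.02). Averaged over days 3 and 5 it was 1.08-fold higher (adjusted p = 9.48e-05, edgeR). LacZ cells also had more FGF2 on day 5 than on day 1, by 0.10 on the log2 scale (adjusted p = 0.00614, edgeR). With limma on TPM that call was lost (adjusted p = 0.0571, limma). Mean FGF2 in LacZ was 218 CPM on day 1 and 286 CPM on day 3. NUDT6 shares 804 exon bases with FGF2 on the opposite strand, and the kit does not keep the strand. NUDT6 had 4.44 to 8.18 CPM, against at least 218 CPM of FGF2. CFAP299 shares 136 exon bases with FGF5 on the same strand and had 10.3 to 16.7 CPM, against at least 325 CPM of FGF5.

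FGF5, a signal that ends hair growth, went to the higher side early and to the lower side late. It had 353 and 345 CPM in BRD9 KO on day 2 against 325 CPM in both LacZ libraries, and 326 and 331 CPM in BRD9 KO on day 5 against 355 and 349 CPM in LacZ. The groups were apart on both days, in opposite directions. On day 1 it had 387 and 381 CPM in BRD9 KO against 374 and 369 CPM in LacZ, and on day 3 389 and 385 CPM in BRD9 KO against 385 CPM in both LacZ libraries. It differed by 0.10 on the log2 scale on day 2 (standard error 0.02, adjusted p = 0.0121, edgeR) and -0.10 on day 5 (standard error 0.02, adjusted p = 0.00306, edgeR), and the late effect was below the early one by 0.12 on the log2 scale (log2 -0.12, adjusted p = 0.00118, edgeR). The day 2 call was lost without replicate 1 of BRD9 KO (adjusted p = 0.183), replicate 1 of LacZ (adjusted p = 0.0975) or replicate 2 of LacZ (adjusted p = 0.0964), and the day 5 call without replicate 1 of LacZ (adjusted p = 0.0526, edgeR). The early call (log2 0.07, adjusted p = 0.00794, edgeR) was lost without replicate 1 of BRD9 KO day 2 (adjusted p = 0.0631). The late average (log2 -0.05, adjusted p = 0.0338, edgeR) lost its call without any one of 6 of the 8 libraries of days 3 and 5 (adjusted p up to 0.129). The late call was also lost with DESeq2 (adjusted p = 0.147). With no filter on low counts the early and late calls were lost (adjusted p = 0.0617 and 0.19, edgeR). With only the libraries of day 2 the call of that day was lost (adjusted p = 0.0631, edgeR). On TPM the day 5 difference was 0.01 in the other direction (adjusted p = 0.972, limma), and the calls of day 2, early, late and late minus early were lost (adjusted p = 0.552, 0.61, 0.928 and 0.631, limma). LacZ cells themselves had less FGF5 on day 5 than on day 1, by -0.08 on the log2 scale (adjusted p = 0.0137, edgeR). That call was lost with DESeq2 (adjusted p = 0.0638) and with limma on TPM (adjusted p = 0.907). Mean FGF5 in LacZ was 325 CPM on day 2 and 385 CPM on day 3.

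Other genes of the pathway were read from lists in the late comparison, where 21.5% of all genes were called. Ligand RNA other than FGF2 and FGF5 was scarce: of 16 other secreted FGFs only 3 passed the filter and 8 were at 0 TPM in all libraries. FGF18 and FGF20 rose late. FGF18, active in bone and lung growth, had 4.18 and 3.04 CPM in BRD9 KO on day 5 against 1.94 and 1.60 CPM in LacZ (late log2 0.84, standard error 0.22, adjusted p = 0.00868, edgeR). FGF20 had a late log2 fold change of 0.33 (adjusted p = 0.0444, edgeR). It was lower on day 5 than on day 1 in both groups. In BRD9 KO it had 6.19 and 6.09 CPM on day 1 and 5.54 and 5.29 CPM on day 5. In LacZ it had 6.80 and 7.02 CPM on day 1 and 3.94 and 3.83 CPM on day 5. On day 5 alone FGF20 was not called (adjusted p = 0.0704, edgeR). Of the 4 intracellular homologs, which do not act as secreted ligands, only FGF11 was tested, at 23.7 to 32.0 TPM in BRD9 KO and 22.5 to 31.8 TPM in LacZ libraries (late log2 -0.01, adjusted p = 0.922, edgeR).

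Of 20 tested genes for co-receptors and heparan sulfate, 6 were higher and 7 lower late, with a median log2 fold change of -0.002 beside -0.0003 for all genes. FGFBP3, a carrier that frees FGFs from the matrix, had 64.6 and 65.4 CPM in BRD9 KO on day 5 against 132 and 134 CPM in LacZ (log2 -1.03, standard error 0.04, adjusted p = 2.76e-13, edgeR). GPC3, a surface heparan sulfate proteoglycan, had 162 and 162 CPM in BRD9 KO on day 5 against 229.7 and 237 CPM in LacZ (log2 -0.53, adjusted p = 4.08e-10, edgeR). Both genes were lower in each BRD9 KO library than in each LacZ library of that day. NDST1 and NDST2, which sulfate heparan chains, moved apart late (log2 -0.24, adjusted p = 3.09e-09, and log2 0.38, adjusted p = 6.59e-05, edgeR). GPC1 and FGFRL1, a receptor without a kinase domain, were higher in BRD9 KO late by 0.28 and 0.26 on the log2 scale (adjusted p = 7.31e-05 and 0.000258, edgeR).

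Inside the cell the counts stand beside 21.5% of all genes called late. Among tested genes within the members' range of abundance 30.1% were called late. The counts are not read as a change of a list as a whole. Of 12 genes for adaptors and other proteins that act at the receptor 3 were higher and 0 lower late (median log2 0.01). The 3 were SHC1 (log2 0.14, adjusted p = 7.91e-07), CBL (log2 0.13, adjusted p = 0.00493) and SOS2 (log2 0.21, adjusted p = 0.00749, edgeR). Of 14 genes of the RAS to ERK cascade 3 were higher and 2 lower (median log2 0.01). NRAS (log2 0.20, adjusted p = 1.78e-05), RPS6KA2 (log2 0.22, adjusted p = 4e-05) and MAPK3, which encodes ERK1 (log2 0.17, adjusted p = 0.0194, edgeR), were higher in BRD9 KO. MAP2K2, which encodes the ERK kinase MEK2 (log2 -0.22, adjusted p = 2.56e-08), and ARAF (log2 -0.13, adjusted p = 0.0212, edgeR) were lower.

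Of 17 other negative regulators tested 6 were higher and 1 lower late, with a median log2 fold change of 0.07. DUSP5, a nuclear phosphatase of ERK, had 80.4 and 75.6 CPM in BRD9 KO on day 5 against 58.1 and 61.5 CPM in LacZ (late log2 0.39, standard error 0.04, adjusted p = 6.44e-07, edgeR). DUSP1 (late log2 0.33, adjusted p = 1.71e-08) and IL17RD, an inhibitor of FGF signalling at the receptor (late log2 0.17, adjusted p = 9.49e-07, edgeR), also rose. The most abundant gene of the list, ERRFI1, an inhibitor of the EGF receptor, had a late log2 fold change of 0.004 (adjusted p = 0.891, edgeR) that averaged opposite days. It had 681.8 and 701.2 CPM in BRD9 KO on day 5 against 736.3 and 735.8 CPM in LacZ, and was called lower (log2 -0.09, adjusted p = 0.00671, edgeR), and 786.1 and 792.1 CPM in BRD9 KO on day 3 against 735.9 and 739.1 CPM in LacZ. DUSP16 was lower in BRD9 KO (late log2 -0.18, adjusted p = 0.0369, edgeR). The other Sprouty and SPRED genes, SPRY1, SPRY3, SPRED1 and SPRED3, are named after their values were seen. None of them was called late (log2 -0.08, 0.355, 0.03 and 0.07, edgeR).

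Late, 21.5% of all tested genes were called, and 30.1% of those within the members' range of abundance. Of 11 tested ERK-responsive transcripts 3 were higher and 0 lower late, with a median of 0.05. These were EGR1, with 22.7 and 24.3 CPM in BRD9 KO on day 5 against 16.2 and 16.3 CPM in LacZ (late log2 0.55, standard error 0.06, adjusted p = 6.18e-07), CCND1 (late log2 0.18, adjusted p = 2.59e-07) and IER3 (late log2 0.14, adjusted p = 0.00328, edgeR). The others, named after their values were seen, were not called late. They were ETV4, ETV5, FOS and FOSL1 (log2 0.05, 0.04, -0.04 and 0.10), and IER2, PHLDA1, MYC and EPHA2 (log2 0.09, 0.01, -0.06 and 0.04, edgeR). On day 5 alone 2 of the 11 were higher and 1, MYC, was lower (log2 -0.145, adjusted p = 0.0164, edgeR). IER3 was not called on that day (log2 0.12, adjusted p = 0.0781, edgeR). Early, beside 3.31% of all genes called, EGR1 was higher (log2 0.21, adjusted p = 0.0484, edgeR). ETV4, PHLDA1 and EPHA2, 3 genes named after their values were seen, were lower early (log2 -0.16, -0.14 and -0.11). The early EGR1 value averaged opposite days. On day 1 EGR1 had 46.3 and 50.3 CPM in BRD9 KO, below 54.5 and 52.7 CPM in LacZ. On day 2 EGR1 had 16.4 and 14.5 CPM in BRD9 KO, above 11 and 9.97 CPM in LacZ. Of 10 tested receptor tyrosine kinases outside the family 3 were higher and 4 lower late (median log2 0.05). DDR1, a collagen receptor, had 469.8 and 459.8 CPM in BRD9 KO on day 5 against 319 and 312 CPM in LacZ (log2 0.56, adjusted p = 6.08e-12, edgeR). AXL had 46.1 and 47.2 CPM in BRD9 KO on day 5 against 70.9 and 65.7 CPM in LacZ (log2 -0.55, adjusted p = 2.77e-07, edgeR). Late, EGFR and IGF1R were higher in BRD9 KO and PDGFRB and DDR2 were lower (log2 0.18, 0.15, -0.25 and -0.27).

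**Figure D4:**
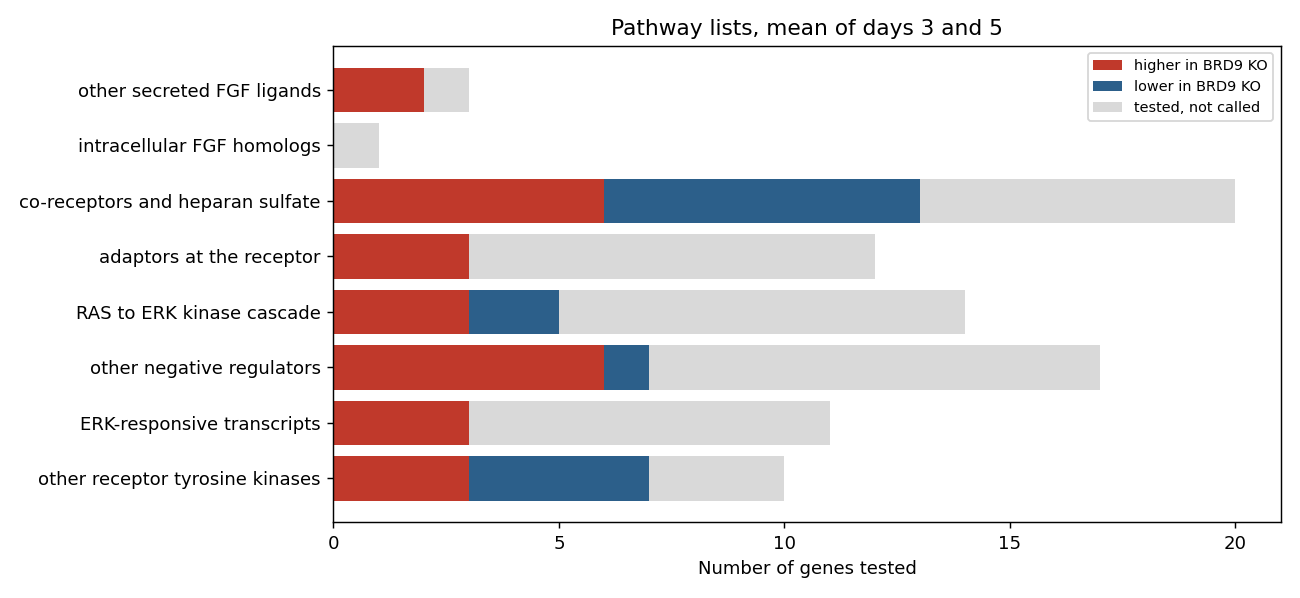
Number of tested genes (x axis) in each pathway list that were higher (red) or lower (blue) in BRD9 KO, or not called (grey), averaged over days 3 and 5. The co-receptor list holds 6 higher and 7 lower of 20, the list of other negative regulators 6 higher and 1 lower of 17.

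The genes closest to DUSP6 and FGFR1 over time were described by the Pearson correlation of mean log2 CPM over the 8 groups, among 10142 genes. The 3 nearest DUSP6 were ITGAV (r = 0.98), SLC39A13 (0.979) and N4BP3 (0.978), and the 3 nearest FGFR1 were KIAA0947 (0.988), RBM33 (0.985) and MDN1 (0.974). The 8 points share libraries and days, and the correlation is given as a description only.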

How the data were processed

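RNA-seq of 16 G401 libraries (8 groups of guide and day, 2 libraries each) was analysed. Per the study's methods the authors used the NEBNext Ultra kit, which does not keep the strand, aligned reads to hg19 with STAR, quantified with RSEM and tested with DESeq2; versions are not given in the sources used here. The deposited expected counts are RSEM's estimates of reads per gene, rounded here to whole numbers, and the deposited TPM, which the authors' RSEM runs scaled by transcript length, was used for levels and as an alternative.

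All libraries were fitted together in edgeR 4.0.16 (R 4.3.3): filterByExpr with a minimum count of 10 and total of 15, TMM, glmQLFit and glmQLFTest with a mean per group, Benjamini-Hochberg over 15027 genes. Residual degrees of freedom were 8. Alternatives were other filters and size factors, DESeq2 1.42.0, limma 3.58.1 (limma-trend on log2 of TPM plus 1), only a comparison's own libraries, a replicate block and each library left out. The fit was also run on counts simulated with its own estimate of spread, so that run cannot test the estimate of spread itself. Totals of 9185866 to 16560749 counts set the precision. Gene positions are from GENCODE on GRCh37, matched for 55538 gene IDs.

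The members and the pathway lists were chosen with earlier results of these data known. The text names the members, BRD9, up to 3 called genes per direction and list with the smallest late p, the most abundant tested gene of a list (where values bear on it), and the 3 genes most like DUSP6 and FGFR1.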

Additional observations from a re-analysis of the deposited data

Results flagged for a closer look

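For 6 members the BRD9 KO effect differed between the late (days 3 and 5) and early (days 1 and 2) averages by edgeR's test of the difference itself. The late minus early difference on the log2 scale was 0.44 for SPRY4 (adjusted p = 1.47e-05), 0.32 for DUSP6 (adjusted p = 7.78e-06), 0.42 for FGFR3 (adjusted p = 0.0189), 0.11 for FGFR1 (adjusted p = 0.00382), -0.16 for FGFR2 (adjusted p = 0.000176) and -0.12 for FGF5 (adjusted p = 0.00118, edgeR). For FGF5 the effect also changed side. With DESeq2 the same count of 6 was called, and with limma on TPM 3 (SPRY4, DUSP6 and FGFR2), with adjusted p = 0.691 for FGFR3, 0.0851 for FGFR1 and 0.631 for FGF5.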

How the results depend on the processing

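The number of members called moved most with limma on log2 of TPM plus 1, which called 0 on day 2, 2 on day 3, 5 on day 5, 0 early, 3 for late minus early and 1 for LacZ day 5 minus day 1. DESeq2 called 1 on day 2 and 1 early, where it gave FGFR3 no adjusted p, and the libraries of day 2 alone gave 0. With each library left out in turn the count was 0 to 1 on day 2, 4 to 5 on day 3, 6 to 8 on day 5, 1 to 3 early, 7 to 8 late, 5 to 7 for late minus early and 3 to 5 for the LacZ comparison. The cause was not tested.

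Log2 fold changes that changed sign were not called, except FGF5 on day 5 (0.01 on TPM). On TPM the values were -0.04 for FGF5 on day 3, -0.04 for FGFR1 on day 1, -0.22 and -0.13 for FGFR4 on days 2 and 3, 0.06 and 0.03 for SPRED2 on day 2 and early, 0.03 and 0.0032 for SPRY4 on day 2 and early, and 0.03 for DUSP6 in the LacZ comparison. With no filter on low counts they were -0.01 for DUSP6, FGFR1 and SPRED2 on day 1 and -0.0034 for FGFR2 in the LacZ comparison, and with DESeq2 -0.0007 for SPRED2 on day 1. With a library left out, the ranges that crossed 0 were, on day 1, DUSP6 -0.04 to 0.06, FGFR1 -0.02 to 0.03, FGFR4 -0.04 to 0.14, SPRED2 -0.05 to 0.04, SPRY2 -0.05 to 0.02 and SPRY4 -0.09 to 0.03. On day 2 they were FGFR4 -0.10 to 0.29, SPRY2 -0.08 to 0.01 and SPRY4 -0.06 to 0.02, and on day 3 FGF5 -0.0019 to 0.01. Early they were FGFR1 -0.02 to 0.0037, FGFR4 -0.02 to 0.18, SPRED2 -0.03 to 0.01 and SPRY4 -0.05 to 0.01, late SPRY2 -0.01 to 0.04, and in the LacZ comparison DUSP6 -0.06 to 0.0047 and FGFR2 -0.01 to 0.03.

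Replicate numbers were not taken to pair the libraries, since the correlation was not above 0.1 on every day: residuals of same-numbered BRD9 KO and LacZ libraries correlated at -0.0123, -0.0489, -0.0245 and -0.0176 on days 1, 2, 3 and 5. Among the 6273 genes with a mean log2 CPM above 5 the values were -0.0435, -0.1183, 0.1014 and 0.1766. With a replicate block 0, 2, 5 and 8 members were called on the 4 days, 2 early (FGFR2 lost, adjusted p = 0.0779), 8 late, 6 for late minus early and 5 in the LacZ comparison, and 76 to 3841 genes in all per comparison.

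Over all genes the counts of 81, 406, 1569 and 2250 on the 4 days, 498 early, 3230 late, 1117 for late minus early and 3847 for the LacZ comparison became 11, 103, 412, 994, 132, 1534, 317 and 1811 with limma on TPM. DESeq2 called 893 on day 3, 1339 on day 5, 1973 late, 631 for late minus early and 2393 for LacZ. On day 1 there were 290 without a filter and 49 with that day's libraries alone. Leaving out a library gave 15 to 30 on day 1, 201 to 261 on day 2, 841 to 1019 on day 3, 1442 to 1607 on day 5 and 315 to 426 early.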

Other observations

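Of the 3 expressed identity markers of rhabdoid tumor cells, KRT18 and KRT8, keratins of simple epithelia, were higher in BRD9 KO late (log2 fold change 0.46, adjusted p = 1.3e-16, and 0.44, adjusted p = 8.94e-16) and VIM, the filament protein vimentin, was lower (log2 -0.07, adjusted p = 0.00105, edgeR). All 3 were also called early, at 0.12, 0.08 and -0.06 on the log2 scale.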
